A study of Rattus norvegicus with 14 samples.

Results

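Chemokines are small secreted proteins that direct the migration of leukocytes and other cells, and they act through G protein-coupled receptors. Their genes and those of the receptors were followed at 4 ages after birth in the epididymis of the rat, where sperm gain the ability to swim and fertilise. A gene was a member if its symbol in the array annotation was Ccl, Cxcl, Ccr, Cxcr or Ackr and then only a number, or Xcl1, Xcr1, Cx3cl1 or Cx3cr1. This gave 53 of the 18166 genes measured, 34 ligands and 19 receptors, each with 1 transcript cluster (the array's probe set for a gene). The rats were of the Sprague-Dawley strain, whole epididymides were pooled, and each pool was read on 1 RatGene 2.0 ST array. The day 7 group had 3 pools, the day 18 group 4, the day 28 group 4 and the day 60 group 3. No treatment, mutation or transgene is given for any age. The number of animals per pool and whether pools of an age held different litters are not given in the sources used here, so the tests measure only the spread between these pools. Pups of day 7 and day 18 were kept with their mothers, per the labels.

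Chemokines are grouped by the spacing of their first cysteines into CC, CXC, C and CX3C families. The CXC and CC ligands of inflammation are induced quickly by cytokines and injury and call in neutrophils and monocytes, while homeostatic ligands are made steadily by stroma and epithelium and place lymphocytes and resident cells. Atypical receptors bind chemokines without G protein signalling and remove them. The epididymis holds macrophages, dendritic cells and lymphocytes in and under its epithelium, at a site where sperm antigens first appear at puberty.

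Values are log2 signals as the authors deposited them, so 1 unit is a 2-fold step, except for summed signals of gene lists, which are on the linear scale. Differences are later minus earlier age with the SE of a limma model fitted to all 14 arrays, and levels of an age are means ± SD over its pools. A gene was called if its p, adjusted by Benjamini-Hochberg over all 18166 genes, was under 0.05. As a background level served the 95th percentile of 1316 olfactory and vomeronasal receptor genes, 4.91. The pools are whole organs, so fewer cells of a type and less RNA per cell cannot be told apart. Related chemokines such as Ccl2, Ccl7 and Ccl12, Ccl3 and Ccl4, or Cxcl1, Cxcl2 and Cxcl3 resemble each other, and signal shared between them was not separated.

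Of the 10 epithelial genes used to check the tissue, Epcam and Cdh1 had means of at least 9.36 at every age, while the secretory genes Crisp1, Rnase9 and Adam7 were under the background level at day 7 and reached 11.65, 11.82 and 13.22 at day 60. Cst8 was under it until day 28 and at 8.92 at day 60. Replicate 2 of day 28 stood apart, with an array median of 5.42 against 5.21 to 5.32 on the other 13 arrays, and its receptor genes had a 95th percentile of 5.32 against 4.80 to 5.05. Results that end without it are named where they stand.

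Of the 53 members 43 had a mean above the background level at 1 age or more. The 10 that did not were the ligands Ccl1, Ccl4, Ccl9, Cxcl3 and Cxcl6 and the receptors Ccr3, Ccr8, Ccr9, Cxcr1 and Cxcr2. Over the 4 ages 37 members changed by the F test, when 60.4% of all genes did. Of these 37, 19 spanned at least 2-fold between their lowest and highest age means, and 16.5% of all genes passed both conditions. The 16 members that did not pass the F test were Ackr2, Ccl1, Ccl17, Ccl20, Ccl25, Ccl26, Ccl4, Ccl9, Ccr10, Ccr3, Ccr4, Ccr7, Ccr9, Cxcl17, Cxcl6 and Cxcr1.

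**Figure D1:**
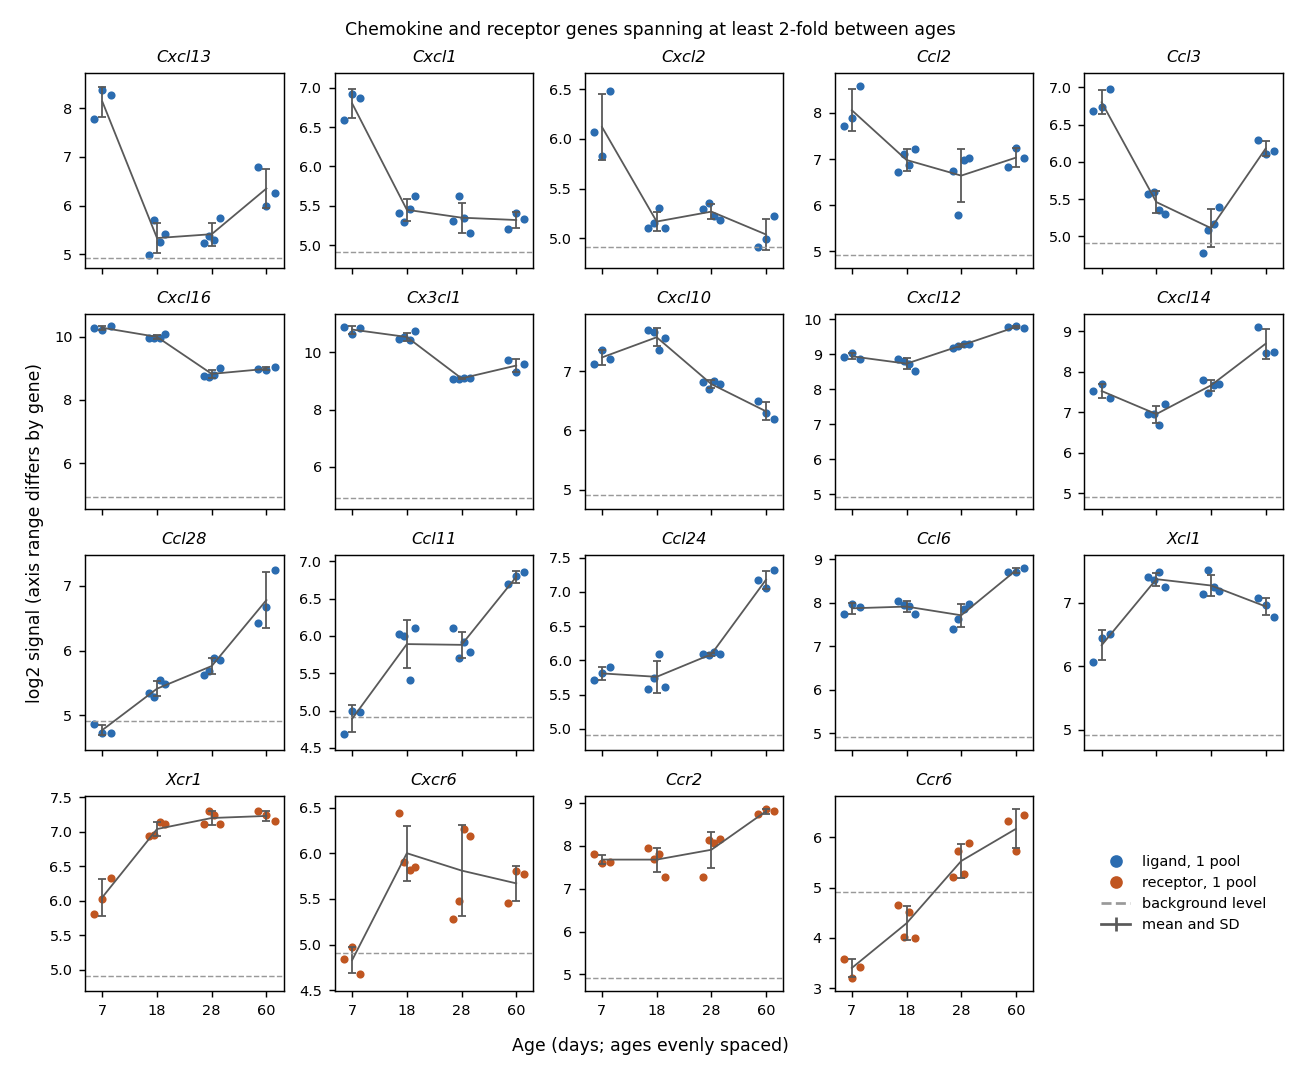
log2 signal (vertical axis, its range set for each gene) in every pool at day 7, 18, 28 and 60 (horizontal axis) for the 19 members that spanned at least 2-fold between ages. Points are pools (blue ligands, orange receptors), lines join the means with SD bars and the dashed line is the background level of 4.91. Of the 19, 7 had their highest mean at day 7, 3 at day 18 and 9 at day 60.

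The steps differed in how many members moved. At day 18 against day 7, 12 of 53 members were higher (22.6%, with 17.4% of all genes) and 9 were lower (17.0%, with 20.7% of all genes), shares near the background. At day 28 against day 18, 5 were higher (9.43%, with 10.5% of all genes) and 7 lower (13.2%, with 14.3% of all genes), again near the background. Without 1 pool the count of 7 came to 4 (without day 18 replicate 1 or day 28 replicate 1) or 3 (without day 28 replicate 2). With the arrays centred on their medians 13 were lower at this step, and the share of called members that were higher was 23.5% in place of 41.7%; of all genes called at this step 31.7% were then higher in place of 42.3%. At day 60 against day 28, 19 were higher (35.8%, with 13.8% of all genes) and 2 lower (3.77%, with 11.2% of all genes); the count of 2 came to 1 without day 28 replicate 3 or day 60 replicate 1. Over the whole span from day 7 to day 60, a comparison that shares its pools with the steps, 18 were higher (34.0%, with 21.7% of all genes) and 15 lower (28.3%, with 27.6% of all genes). The median difference of the 53 members was 0.05, -0.10 and 0.08 for the 3 steps, against 0.012, -0.021 and -0.021 for all genes.

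**Figure D2:**
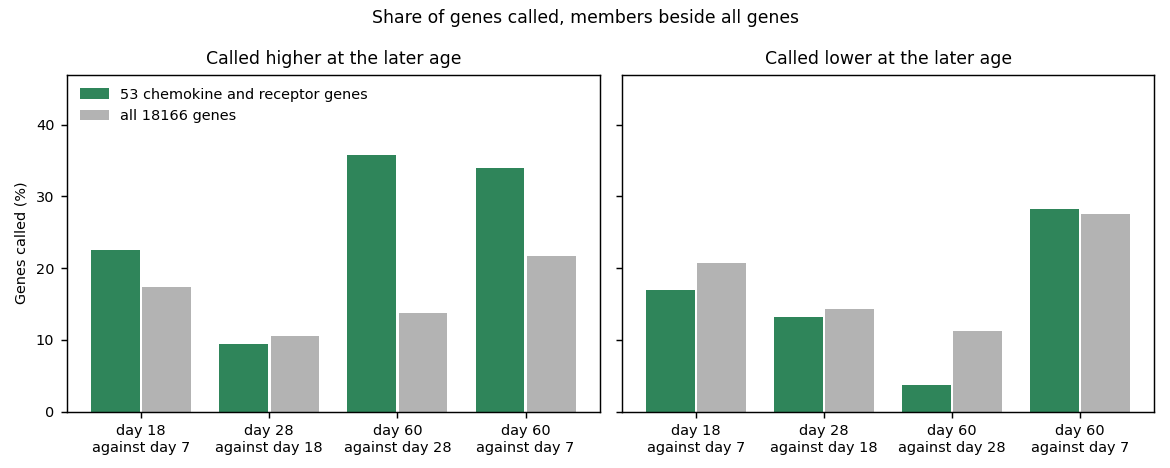
Percent of genes called higher (left) and lower (right) at the later age, in the 53 members (green) and in all 18166 genes (grey), for the 4 comparisons. The members' share called higher at day 60 against day 28 is 35.8% against 13.8%, and the other shares of the 3 steps lie closer together.

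**Figure D3:**
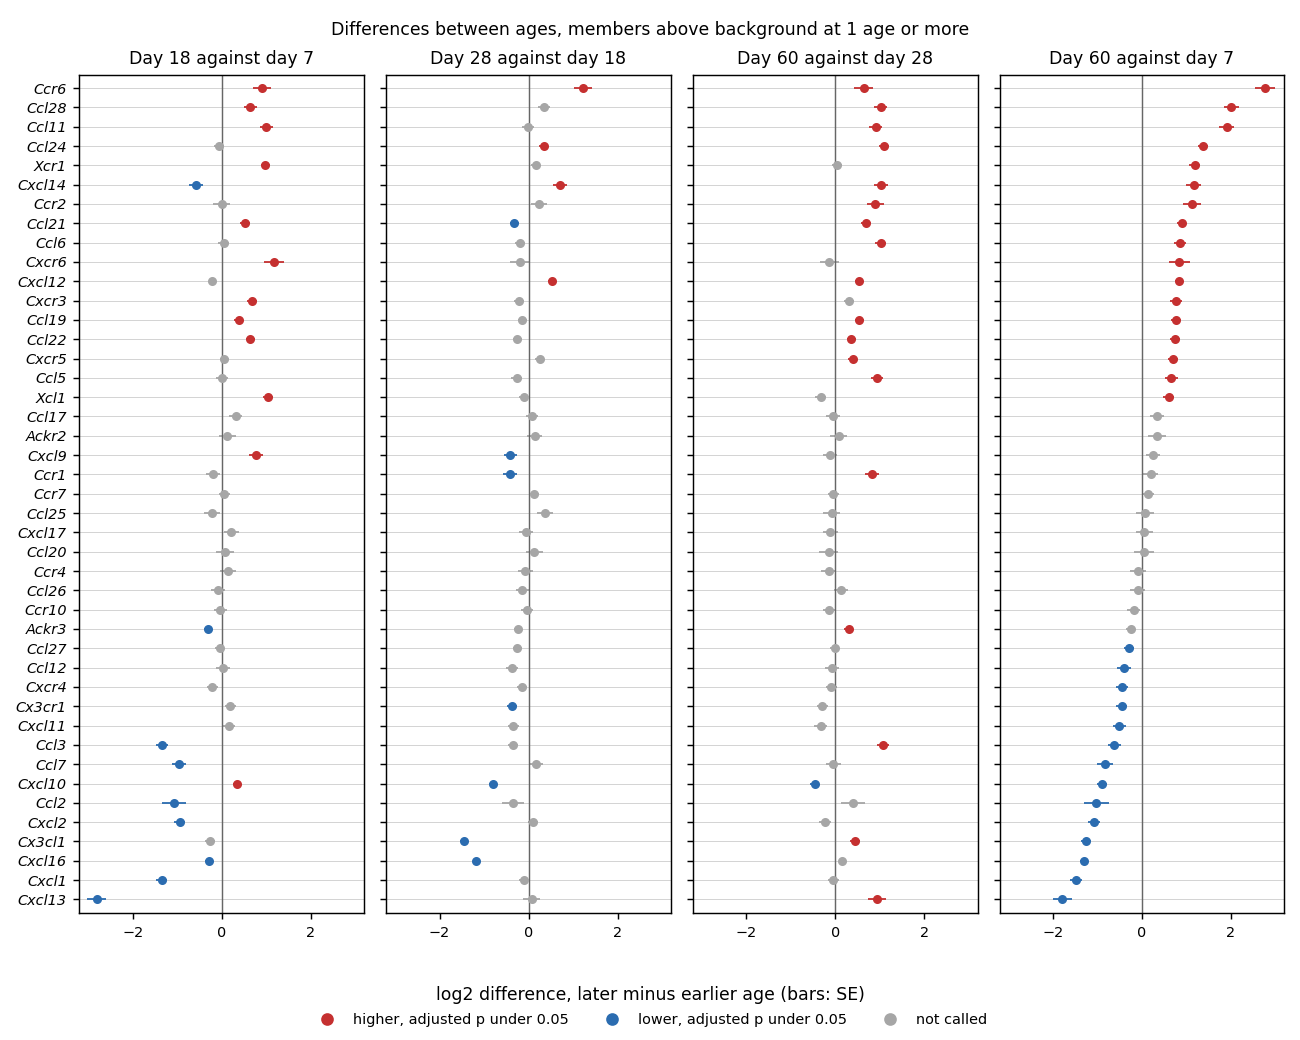
log2 difference, later minus earlier age, with its SE (horizontal axis) for the 43 members above the background level at 1 age or more, ordered by their difference between day 60 and day 7. Red and blue mark genes called higher and lower and grey the rest. Cxcl13 lies at the bottom with -1.79 in the panel of day 60 against day 7. The points of Ccr6, Ccl28, Ccl22 and Cxcr5, whose day 7 pools were all under the background level, have no reliable size or rank there.

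Cxcl1 and Cxcl2, CXC ligands that attract neutrophils through Cxcr2, were highest at day 7. Cxcl1 gave 6.59, 6.92 and 6.87 on day 7, 5.41, 5.30, 5.46 and 5.63 on day 18, 5.31, 5.62, 5.34 and 5.15 on day 28, and 5.21, 5.41 and 5.33 on day 60. Cxcl1, the rat's main neutrophil attractant of this family, fell by 1.35 ± 0.12 (adjusted p = 3.63e-07) at day 18, a 2.54-fold difference, and every day 7 pool lay above every later pool. Cxcl2 gave 6.07, 5.83 and 6.48 on day 7, 5.11, 5.16, 5.31 and 5.11 on day 18, 5.30, 5.36, 5.23 and 5.19 on day 28, and 4.91, 4.99 and 5.23 on day 60. Cxcl2, which acts on the same receptor, fell by 0.95 ± 0.13 (adjusted p = 2.77e-05), and its day 7 pools also stood clear of the rest. Neither gene was called at a later step; the differences at day 28 were -0.10 ± 0.11 (adjusted p = 0.576) for Cxcl1 and 0.10 ± 0.12 (adjusted p = 0.586) for Cxcl2, and at day 60 -0.04 ± 0.12 (adjusted p = 0.858) and -0.23 ± 0.13 (adjusted p = 0.219). Cxcl3 and Cxcl6, relatives of the same group, stayed under the background level, with pools between 2.68 and 3.67 and between 3.69 and 4.90. The receptor Cxcr2 was under it as well, although it was called higher at day 60, with 4.24, 4.24 and 4.23 against 3.45 to 3.83 at day 28, so that no fold is given. Cxcl3 was called lower at day 60 (2.93 against 3.34 at day 28), both under the background level; that call ended without any 1 of day 28 replicates 2 and 3 and day 60 replicates 1 and 3 and with quantile normalization, arrays centred on their medians, an intensity trend, only the pools of the 2 ages and array weights (adjusted p = 0.0504 to 0.178). Its call for day 60 against day 7 (-0.43 ± 0.14, adjusted p = 0.0223) ended without any 1 of day 7 replicate 1 and day 60 replicate 1 (adjusted p = 0.095 to 0.114). The receptor Cxcr1 had means of 4.51, 4.51, 4.61 and 4.55 over the 4 ages. Of 8 neutrophil markers 6 were under the background level at every age (S100a8, S100a9, Elane, Ngp, Mmp8 and Csf3r). At day 18 Mpo was called higher, with a mean of 5.16 against 4.57 at day 7, under the background level, and the other markers were not called. In all, 1 rose and 0 fell at that step, with 17.4% and 20.7% of all genes. The summed linear signal of the 8 was 147 to 171 at day 7 and 166 to 198 at day 18.

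The stretches upstream of these start sites are shown because both genes that fell together, Cxcl1 and Cxcl2, and their neighbour Cxcl6, which stayed under the background level, hold a match to the kappaB motif, the kind of word that NF-kappaB factors of inflammation bind. It begins 84 bases before the start site in Cxcl1, 74 in Cxcl2 and 88 in Cxcl6. Cxcl10, which is described further on and moved differently, holds one 187 bases before its start site. Each run is the 250 bases before the start site in RefSeq's GRCr8, 5′ to 3′ on the gene's strand. Capitals mark matches to the kappaB motif on either strand and, in Cxcl10 alone, to the interferon-response word GAAANNGAAA, which come first there.
Cxcl1, chr14:17479322-17479571, minus strand: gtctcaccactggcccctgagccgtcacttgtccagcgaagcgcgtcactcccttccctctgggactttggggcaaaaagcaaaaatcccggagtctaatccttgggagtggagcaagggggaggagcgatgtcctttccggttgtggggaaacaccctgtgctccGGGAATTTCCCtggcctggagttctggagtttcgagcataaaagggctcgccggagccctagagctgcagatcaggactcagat
Cxcl2, chr14:17467256-17467505, minus strand: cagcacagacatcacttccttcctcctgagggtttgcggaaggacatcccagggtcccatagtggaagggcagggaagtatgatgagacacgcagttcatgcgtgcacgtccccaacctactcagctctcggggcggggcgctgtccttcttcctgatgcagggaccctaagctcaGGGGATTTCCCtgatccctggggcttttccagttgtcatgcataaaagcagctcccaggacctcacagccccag
Cxcl6, chr14:17596418-17596667, minus strand: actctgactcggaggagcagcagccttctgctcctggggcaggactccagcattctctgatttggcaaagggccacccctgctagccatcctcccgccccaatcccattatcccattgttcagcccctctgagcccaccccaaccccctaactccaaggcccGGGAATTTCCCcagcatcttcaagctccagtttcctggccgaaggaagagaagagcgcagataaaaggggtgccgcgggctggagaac
Cxcl10, chr14:15988816-15989065, plus strand: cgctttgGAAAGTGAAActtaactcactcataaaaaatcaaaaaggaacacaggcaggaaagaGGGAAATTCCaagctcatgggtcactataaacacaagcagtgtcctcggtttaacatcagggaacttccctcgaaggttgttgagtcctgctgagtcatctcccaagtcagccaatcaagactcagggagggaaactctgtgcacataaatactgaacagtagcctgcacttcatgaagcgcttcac
Of the 53 members 41 had a promoter in the table, and 8 of these (19.5%) held a kappaB match within 250 bases, as did 3.52% of 27457 promoters; they were Ccl20, Ccl9, Ccr3, Cxcl1, Cxcl10, Cxcl11, Cxcl2 and Cxcl6. GAAANNGAAA was found in Ccl19 and Cxcl10 (3.29% of all promoters). The AP-1 word TGANTCA, bound by Fos and Jun proteins, was found in Ccl7, Ccr3, Cxcl10, Cxcl11, Cxcl14, Cxcr6 and Xcr1, which is 17.1% of the members and 6.36% of all promoters. AGAACA, a word bound by steroid receptors such as the androgen receptor, was found in Ccl20, Ccl22, Ccr3, Ccr6 and Cxcr2, 12.2% of the members and 17.1% of all promoters. Both strands were searched, the AP-1 word reads the same on both, and no match of one motif overlapped a match of another in a member. Members with a kappaB match included 4 that stayed under or near the background level (Ccl20, Ccl9, Ccr3 and Cxcl6).

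Ligands of monocytes and macrophages also fell at the first step. Ccl2 gave 7.72, 7.89 and 8.58 on day 7, 6.72, 7.12, 6.88 and 7.22 on day 18, 6.75, 5.79, 6.99 and 7.03 on day 28, and 6.83, 7.24 and 7.03 on day 60. Ccl2, the main attractant of monocytes through Ccr2, fell by 1.08 ± 0.27 (adjusted p = 0.00468) at day 18. All its day 7 pools lay above all later pools, and replicate 2 of day 28 was the lowest of the 14. Ccl3 gave 6.68, 6.73 and 6.98 on day 7, 5.57, 5.59, 5.36 and 5.30 on day 18, 4.78, 5.09, 5.17 and 5.40 on day 28, and 6.29, 6.11 and 6.14 on day 60. Ccl3, a macrophage inflammatory protein that acts on Ccr1, fell by 1.34 ± 0.13 (adjusted p = 1.19e-06) at day 18 and rose by 1.07 ± 0.13 (adjusted p = 3.92e-05) at day 60. Its day 60 pools were above all pools of day 18 and day 28 and below all of day 7. Ccl7, another ligand of Ccr2, was at 4.85 ± 0.25 at day 18 against 5.82 ± 0.13 at day 7 and fell by 0.96 ± 0.16 (adjusted p = 0.000246); 1 of the 4 day 18 arrays had it above that array's own background level. Ccl12, a rodent monocyte attractant, had means of 5.33, 5.36, 4.99 and 4.92 over the 4 ages. Its call for day 60 against day 7 (-0.41 ± 0.16, adjusted p = 0.044) ended without any 1 of day 7 replicates 1 and 3, day 18 replicates 1, 2 and 3, day 28 replicates 2 and 4 and day 60 replicate 3 and with only the pools of the 2 ages and the replicate number as a block (adjusted p = 0.0516 to 0.247).

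The immediate early genes, transcription factors and regulators that respond to stimulation and handling within minutes, make up a list that was added with their values already known. Of 15 measured, 12 were lower at day 18 than at day 7 and Egr2 was higher (20.7% of all genes were lower and 17.4% higher). Their summed linear signal was 3944 to 4470 at day 18 against 12086 to 16088 at day 7, and Fos was at 6.89 against 10.76. They moved with Cxcl1, Cxcl2, Ccl2, Ccl3 and Ccl7 at this step, and their part in those falls was not tested. At day 60, when Ccl3 rose, their sum was 4098 to 4436 against 2982 to 3514 at day 28.

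Ccr2, the receptor of Ccl2, was called at the last step, and Ccl2 at the first. Ccr2 gave 7.80, 7.61 and 7.62 on day 7, 7.94, 7.70, 7.80 and 7.28 on day 18, 7.28, 8.13, 8.06 and 8.17 on day 28, and 8.74, 8.86 and 8.82 on day 60. Ccr2, which brings monocytes into tissue, rose by 0.90 ± 0.19 (adjusted p = 0.00322) at day 60, and the 3 day 60 pools were above the other 11. At day 18 against day 7 its difference was 0.0 ± 0.19 (adjusted p = 0.993). Replicate 1 of day 28 was at 7.28 while the other 3 of that age were at 8.06 to 8.17. Ccr1, a receptor for Ccl3 and Ccl5 on monocytes and macrophages, rose by 0.82 ± 0.16 (adjusted p = 0.00165) at day 60, with pools of 5.65, 5.54 and 5.69 against 5.24, 4.58, 4.60 and 4.82 at day 28. Only 1 of those 4 day 28 arrays had it above its own background level. Its earlier fall at day 28 (by 0.42 ± 0.15, adjusted p = 0.0467) ended without any 1 of day 7 replicates 1, 2 and 3, day 18 replicates 1, 2 and 4, day 28 replicates 2, 3 and 4 and day 60 replicates 1, 2 and 3 and with only the pools of the 2 ages (adjusted p = 0.0552 to 0.137).

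Other CC ligands of the same chromosomal group rose at day 60. Ccl6 gave 7.73, 7.97 and 7.91 on day 7, 8.04, 7.95, 7.92 and 7.74 on day 18, 7.39, 7.63, 7.86 and 7.97 on day 28, and 8.70, 8.71 and 8.80 on day 60. Ccl6, a rodent chemokine made by macrophages and other myeloid cells, rose by 1.02 ± 0.12 (adjusted p = 3.46e-05) at day 60, and the earlier ages overlapped each other. Ccl5, a product of T cells and many other cells that attracts T cells and monocytes, had 9.51, 8.80 and 9.26 at day 60 against 8.14, 8.16, 8.28 and 8.45 at day 28 and rose by 0.94 ± 0.14 (adjusted p = 0.000286). Ccl4, the close relative of Ccl3, and Ccl9, the close relative of Ccl6, had age means under the background level, with pools of 4.20 to 4.96 and 3.85 to 4.59. Of 11 macrophage genes measured 7 rose at day 60 and 0 fell (13.8% of all genes were higher and 11.2% lower). Among them Cd163, a haemoglobin scavenger receptor, rose by 1.25 ± 0.094 (adjusted p = 4.84e-07), while Csf1r, the receptor of the macrophage growth factor, differed by 0.25 ± 0.091 (adjusted p = 0.0639). At day 28 against day 18, 1 of the 11 had risen and 6 had fallen (10.5% and 14.3% of all genes). The summed signal of the 11 was 3840 to 4355 at day 7, 4445 to 5131 at day 18, 3337 to 3815 at day 28 and 4016 to 4444 at day 60. Their part in the rises of Ccr2, Ccr1, Ccl3 and Ccl6 was not tested.

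The largest fall of a member was that of Cxcl13, the ligand that gathers B cells into follicles through Cxcr5. Cxcl13 gave 7.78, 8.37 and 8.27 on day 7, 4.98, 5.70, 5.24 and 5.41 on day 18, 5.22, 5.38, 5.28 and 5.75 on day 28, and 6.79, 6.0 and 6.26 on day 60. The gene fell by 2.81 ± 0.21 (adjusted p = 6.71e-08) at day 18, a 7-fold difference, and rose by 0.94 ± 0.21 (adjusted p = 0.0039) at day 60. Its day 60 pools stood above all pools of day 18 and day 28 and below those of day 7. Cxcr5 was at 5.40 ± 0.18 at day 60 against 5.01 ± 0.12 at day 28 and rose by 0.39 ± 0.1 (adjusted p = 0.0134); that call ended without any 1 of day 60 replicates 1 and 2 (adjusted p = 0.0601 to 0.065). Its day 7 and day 18 pools (4.56 to 4.90) were all under the background level, and day 60 was at least 1.44-fold higher than day 7. Of the 4 B cell markers measured, Ms4a1 and Jchain were under the background level at every age, and the summed signal of the 4 was 95 to 107 at day 7 and 111 to 121 at day 60.

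Cxcl12 and Cxcl14 rose over the later steps. Cxcl12 gave 8.92, 9.03 and 8.87 on day 7, 8.87, 8.81, 8.71 and 8.52 on day 18, 9.19, 9.24, 9.29 and 9.28 on day 28, and 9.77, 9.80 and 9.76 on day 60. Cxcl12, a stromal factor that holds progenitors and lymphocytes in place through Cxcr4, rose by 0.52 ± 0.078 (adjusted p = 0.000179) at day 28 and rose by 0.53 ± 0.084 (adjusted p = 0.000374) at day 60. The pools of day 18, day 28 and day 60 did not overlap, and the day 60 pools lay between 9.76 and 9.80. Of 7 genes of stromal fibroblasts 2 rose and 1 fell at day 28, and 1 rose and 3 fell at day 60 (of all genes 10.5% were higher and 14.3% lower at day 28, and 13.8% and 11.2% at day 60), with summed signals of 20228 to 22159 at day 28 and 17909 to 18275 at day 60. Of 4 genes of blood endothelium 4 rose and 0 fell at day 28, and 0 were called at day 60 against day 28. The part of either list in the rises of Cxcl12 was not tested. The Cxcl12 receptor Cxcr4 had means of 6.07, 5.86, 5.71 and 5.62, was called at no step, and fell by 0.45 ± 0.13 (adjusted p = 0.00975) between day 7 and day 60, a call that ended without day 7 replicate 3 (adjusted p = 0.0512). Ackr3, the atypical receptor that takes up Cxcl12, had means of 8.0, 7.69, 7.45 and 7.75. Its fall at day 18 (by 0.31 ± 0.097, adjusted p = 0.0215) ended without any 1 of day 7 replicate 3 and day 18 replicates 1 and 3 and with quantile normalization (adjusted p = 0.0519 to 0.0765). Its rise at day 60 (by 0.30 ± 0.097, adjusted p = 0.0375) ended without any 1 of day 28 replicates 1, 2 and 4 and day 60 replicates 1, 2 and 3 and with quantile normalization, only the pools of the 2 ages and array weights (adjusted p = 0.0573 to 0.112).

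Cxcl14 gave 7.51, 7.70 and 7.35 on day 7, 6.94, 6.94, 6.69 and 7.21 on day 18, 7.79, 7.46, 7.68 and 7.69 on day 28, and 9.11, 8.46 and 8.49 on day 60. Cxcl14, which is made by many epithelia and by fibroblasts, fell by 0.58 ± 0.16 (adjusted p = 0.00959) at day 18, rose by 0.71 ± 0.15 (adjusted p = 0.00256) at day 28 and rose by 1.03 ± 0.16 (adjusted p = 0.000285) at day 60. The day 60 pools lay above all the others and the day 18 pools below all the others. The first of these calls ended without day 7 replicate 2 (adjusted p = 0.0536). Ccl19 and Ccl21, the ligands of Ccr7 that guide dendritic cells and naive T cells along lymphatic vessels into lymph nodes, both rose at day 18 and at day 60. Ccl21 had 8.38, 8.24, 8.39 and 8.08 at day 18 against 7.83, 7.85 and 7.56 at day 7 and rose by 0.52 ± 0.11 (adjusted p = 0.00104). At day 60 it had 8.77, 8.45 and 8.70 against 7.85, 7.91, 8.0 and 8.03 at day 28 and rose by 0.69 ± 0.11 (adjusted p = 0.000261). Between these, at day 28, it fell by 0.32 ± 0.097 (adjusted p = 0.0245), a call that ended without any 1 of day 18 replicates 1 and 3 and day 28 replicates 1 and 2 and with quantile normalization (adjusted p = 0.0519 to 0.0718). Ccl19 rose by 0.38 ± 0.1 (adjusted p = 0.00935) at day 18 and rose by 0.54 ± 0.1 (adjusted p = 0.00163) at day 60, where it was at 6.41 ± 0.2 against 5.88 ± 0.11 at day 28. Ccr7 lay between 5.33 and 5.84 in all 14 pools and did not pass the F test (adjusted p = 0.484). Of 4 lymphatic vessel markers 1 was higher and 2 were lower at day 18 (17.4% and 20.7% of all genes), and 1 was higher and 0 were lower at day 60 against day 28 (13.8% and 11.2%).

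The 2 chemokines that are made as membrane proteins, Cx3cl1 and Cxcl16, fell together at day 28. Cx3cl1 gave 10.89, 10.64 and 10.87 on day 7, 10.46, 10.54, 10.42 and 10.75 on day 18, 9.07, 9.08, 9.10 and 9.12 on day 28, and 9.73, 9.30 and 9.59 on day 60. Cx3cl1, fractalkine, which tethers cells that carry Cx3cr1, fell by 1.45 ± 0.1 (adjusted p = 8.94e-08) at day 28, a 2.73-fold difference, and rose by 0.45 ± 0.11 (adjusted p = 0.00728) at day 60. The pools of day 7 and day 18 overlapped, those of day 28 were the lowest, between 9.07 and 9.12, and those of day 60 stood between. Cxcl16 gave 10.27, 10.22 and 10.34 on day 7, 9.94, 9.97, 9.96 and 10.07 on day 18, 8.76, 8.71, 8.80 and 9.0 on day 28, and 8.96, 8.94 and 9.03 on day 60. Cxcl16, a ligand of Cxcr6 that also takes up oxidised lipoprotein, fell by 0.29 ± 0.079 (adjusted p = 0.00875) at day 18 and fell by 1.17 ± 0.073 (adjusted p = 3.22e-08) at day 28. At day 60 against day 28 its difference was 0.16 ± 0.079 (adjusted p = 0.159). At day 28 no pool of either gene reached the lowest pool of day 18.

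The receptors of both ligands were measured as well. Cx3cr1, a receptor of resident macrophages and dendritic cells including those of the epididymal epithelium, had pools of 8.50, 8.32 and 8.15 on day 7, 8.73, 8.43, 8.27 and 8.63 on day 18, 8.03, 8.07, 8.22 and 8.26 on day 28, and 7.98, 7.64 and 7.95 on day 60. It fell by 0.37 ± 0.11 (adjusted p = 0.0291) at day 28, and this call ended without any 1 of day 18 replicates 1 and 4 and day 28 replicates 1 and 2 (adjusted p = 0.0692 to 0.0926). Over the whole span it fell by 0.46 ± 0.13 (adjusted p = 0.00858), a call that ended without day 60 replicate 2 (adjusted p = 0.0506). Cxcr6 gave 4.84, 4.97 and 4.68 on day 7, 6.44, 5.90, 5.82 and 5.85 on day 18, 5.28, 5.48, 6.27 and 6.19 on day 28, and 5.45, 5.80 and 5.77 on day 60. Cxcr6, a receptor of memory and tissue-resident lymphocytes, rose by 1.17 ± 0.22 (adjusted p = 0.000646) at day 18, when Cxcl16 fell. At day 7 it was near the background level, above it on 1 of 3 arrays. The day 28 pools overlapped those of day 18 and of day 60, and the lowest day 18 pool (5.82) lay just above the highest day 60 pool (5.80). At day 28 against day 18 its difference was -0.20 ± 0.21 (adjusted p = 0.541).

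The interferon-induced ligands of Cxcr3 (Cxcl9, Cxcl10 and Cxcl11) had their highest means at day 18. Cxcl10 gave 7.12, 7.35 and 7.21 on day 7, 7.69, 7.66, 7.35 and 7.56 on day 18, 6.81, 6.69, 6.84 and 6.79 on day 28, and 6.49, 6.30 and 6.19 on day 60. Cxcl10 rose by 0.34 ± 0.099 (adjusted p = 0.0139) at day 18, fell by 0.79 ± 0.091 (adjusted p = 1.79e-05) at day 28 and fell by 0.46 ± 0.099 (adjusted p = 0.00365) at day 60. Day 18 overlapped day 7 by 1 pool (7.35 in both), day 28 lay below both, and the day 60 pools were the lowest. The first call ended without day 7 replicate 1 and with arrays centred on their medians (adjusted p = 0.063 to 0.0718). Cxcl9 had 8.15, 8.10, 7.85 and 7.61 at day 18 against 7.34, 7.19 and 6.94 at day 7 and rose by 0.77 ± 0.15 (adjusted p = 0.00089). It was lower at day 28 by the test (-0.41 ± 0.14, adjusted p = 0.0447), with overlapping pools, and that call ended without any 1 of day 7 replicate 2, day 18 replicates 1, 2 and 3, day 28 replicates 1 and 2 and day 60 replicates 1, 2 and 3 and with quantile normalization, only the pools of the 2 ages, the replicate number as a block and array weights (adjusted p = 0.051 to 0.128). Cxcl11 had means of 5.29, 5.45, 5.11 and 4.78 and fell by 0.51 ± 0.15 (adjusted p = 0.00927) between day 7 and day 60, a call that ended without any 1 of day 7 replicate 1 and day 60 replicate 2 (adjusted p = 0.0518 to 0.0521). Their receptor Cxcr3, which activated T cells and NK cells carry, was at 6.94 ± 0.098 at day 18 against 6.26 ± 0.16 at day 7 and rose by 0.68 ± 0.12 (adjusted p = 0.000281). It was at 6.72 ± 0.11 at day 28 and 7.03 ± 0.26 at day 60, while Cxcl10 fell.

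Xcl1, a C family ligand made by NK cells and cytotoxic T cells, and its receptor Xcr1, carried by the dendritic cells that present antigen to such T cells, rose at the same step. Xcl1 gave 6.06, 6.45 and 6.50 on day 7, 7.41, 7.35, 7.49 and 7.25 on day 18, 7.13, 7.52, 7.25 and 7.18 on day 28, and 7.07, 6.96 and 6.78 on day 60. Xcl1 rose by 1.04 ± 0.12 (adjusted p = 7.5e-06) at day 18 and its pools then lay above all day 7 pools at every later age. Xcr1 gave 5.80, 6.02 and 6.33 on day 7, 6.94, 6.96, 7.14 and 7.11 on day 18, 7.12, 7.30, 7.25 and 7.11 on day 28, and 7.30, 7.24 and 7.15 on day 60. Xcr1 rose by 0.98 ± 0.11 (adjusted p = 4.42e-06) at day 18 and was not called at a later step, with differences of 0.16 ± 0.1 (adjusted p = 0.277) at day 28 and 0.03 ± 0.11 (adjusted p = 0.863) at day 60. Of 15 T and NK cell genes 14 rose at day 18 and 0 fell (17.4% of all genes were higher and 20.7% lower), Cd3d and Gzmb staying under the background level at every age. Their summed signal was 1901 to 2429 at day 18 against 1529 to 1637 at day 7. Of 5 dendritic cell genes 2 rose and 1 fell at day 18, with a median difference of -0.02. Clec9a, which marks the same kind of dendritic cell as Xcr1, rose by 0.59 ± 0.1 (adjusted p = 0.000253), with a day 7 mean of 4.73, under the background level, and Itgax rose by 0.85 ± 0.082 (adjusted p = 9.76e-07). Zbtb46 fell by 0.62 ± 0.14 (adjusted p = 0.00259), and Flt3 and Batf3 were not called. The lists' part in the rises of Cxcr3, Cxcr6, Xcl1 and Xcr1 was not tested.

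Of the 5 ligands of mucosal and skin surfaces (Ccl20, Ccl25, Ccl27, Ccl28 and Cxcl17) Ccl28 was the one called at a step. Ccl28 gave 4.87, 4.72 and 4.73 on day 7, 5.35, 5.28, 5.54 and 5.48 on day 18, 5.62, 5.69, 5.88 and 5.85 on day 28, and 6.42, 6.68 and 7.25 on day 60. Ccl28, made by glandular epithelia and known for drawing antibody-producing cells through Ccr10, rose by 0.64 ± 0.15 (adjusted p = 0.00316) at day 18 and rose by 1.02 ± 0.15 (adjusted p = 0.000183) at day 60. At day 28 against day 18 its difference was 0.35 ± 0.14 (adjusted p = 0.0829), although the pools of those ages did not overlap. All day 7 pools were under the background level, and day 60 was at least 3.75-fold higher than day 7. Of the 10 epithelial genes 9 rose and 0 fell at day 18 (17.4% and 20.7% of all genes). At day 28 Crisp1, Lcn5, Rnase9 and Adam7 rose and Epcam, Krt19 and Cdh1 fell, 4 and 3 genes (10.5% and 14.3% of all genes). At day 60 against day 28, 2 rose and 2 fell (13.8% and 11.2%). The summed signals of the 10 were 3825 to 4371, 11674 to 13052, 26133 to 27876 and 31859 to 33262 over the 4 ages. Their part in the rises of Ccl28 was not tested. The Ccl28 receptor Ccr10 lay between 4.79 and 5.42 in all pools and did not pass the F test (adjusted p = 0.672). Ccl25, a ligand of gut lymphocytes through Ccr9, Ccl27, a skin ligand of Ccr10, and Cxcl17 had means of 5.35 to 5.72, 6.05 to 6.36 and 5.22 to 5.43 over the ages. Of these Ccl27 was called, for day 60 against day 7 (-0.30 ± 0.11, adjusted p = 0.0342), and the call ended without any 1 of day 7 replicate 2 and day 60 replicates 2 and 3 and with quantile normalization, only the pools of the 2 ages and the replicate number as a block (adjusted p = 0.0543 to 0.168). Ccr9 stayed under the background level, between 2.62 and 3.92.

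Ccr6, whose chemokine ligand is Ccl20 and which in humans also binds some beta-defensins, came above the background level at day 28. Ccr6 gave 3.57, 3.21 and 3.42 on day 7, 4.65, 4.02, 4.51 and 4.0 on day 18, 5.22, 5.72, 5.27 and 5.89 on day 28, and 6.33, 5.73 and 6.45 on day 60. All pools of day 7 and day 18 were under the background level, and all pools of day 28 and day 60 were above it. At day 28 Ccr6 rose by 1.23 ± 0.2 (adjusted p = 0.000328), at least 1.44-fold higher than at day 18, and day 60 was at least 2.45-fold higher than day 7. It was called higher at day 18 as well, by 0.90 ± 0.21 (adjusted p = 0.00369), with both ages under the background level. Its rise at day 60 (by 0.64 ± 0.21, adjusted p = 0.0403) ended without any 1 of day 7 replicate 3, day 28 replicates 1 and 3 and day 60 replicates 1 and 3 and with only the pools of the 2 ages and the replicate number as a block (adjusted p = 0.0503 to 0.167). Ccl20 lay near the background level throughout, with means of 4.77, 4.84, 4.97 and 4.82 and a highest pool of 5.55 in replicate 2 of day 28, and did not pass the F test (adjusted p = 0.804). Haploid germ cell genes, a list added with values already known, had a summed signal of 370 to 412 at day 28 against 376 to 402 at day 18, and 2104 to 3052 at day 60. Their part in the day 60 level of Ccr6 was not tested. Of the 12 genes 1 was called higher and 0 lower at day 28, and 10 were higher and 0 lower at day 60 against day 28, with 10.5% and 13.8% of all genes higher at those steps.

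Ccl11 and Ccl24, ligands of the eosinophil receptor Ccr3, rose while the receptor stayed under the background level. Ccl11 gave 4.68, 5.0 and 4.98 on day 7, 6.03, 6.0, 5.41 and 6.10 on day 18, 6.10, 5.70, 5.92 and 5.78 on day 28, and 6.70, 6.80 and 6.86 on day 60. Ccl11, eotaxin, which stromal cells and epithelia make, rose by 1.0 ± 0.15 (adjusted p = 8.39e-05) at day 18 and rose by 0.91 ± 0.15 (adjusted p = 0.000494) at day 60. Day 18 and day 28 overlapped, with a difference of -0.01 ± 0.14 (adjusted p = 0.97), and the other ages stood apart from them, and 2 of the 3 day 7 arrays had it above their own background level. Ccl24 gave 5.71, 5.81 and 5.91 on day 7, 5.58, 5.74, 6.09 and 5.61 on day 18, 6.09, 6.08, 6.12 and 6.09 on day 28, and 7.17, 7.06 and 7.32 on day 60. Ccl24, a second eotaxin, made by macrophages among others, rose by 1.09 ± 0.11 (adjusted p = 7.63e-06) at day 60, and the day 60 pools were above all the others. A smaller rise at day 28 (by 0.34 ± 0.1, adjusted p = 0.0248) ended without any 1 of day 18 replicates 1, 2 and 4 and day 28 replicate 3 and with arrays centred on their medians and only the pools of the 2 ages (adjusted p = 0.0544 to 0.0791). Ccl26, another ligand of this group, had means between 5.02 and 5.25. Ccr3 lay between 1.94 and 2.62 in all pools, and of the eosinophil genes Prg2 and Epx, whose means were 4.90 to 5.30, neither was called at a step.

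Ccl22 and Ccl17 are ligands of Ccr4, a receptor of helper and regulatory T cells. Ccl22, a product of dendritic cells and macrophages, was under the background level in all day 7 pools. It had 5.44, 5.61, 5.23 and 5.29 at day 18 against 4.75, 4.64 and 4.84 at day 7, at least 1.43-fold higher, and rose by 0.64 ± 0.1 (adjusted p = 0.000127). It rose by 0.36 ± 0.1 (adjusted p = 0.0188) again at day 60, a call that ended without any 1 of day 60 replicates 1 and 2 and with the replicate number as a block (adjusted p = 0.0528 to 0.093). Ccl17 had means of 5.08 to 5.48 and Ccr4 of 5.15 to 5.38, and neither passed the F test. Ccl1 and its receptor Ccr8 stayed under the background level, with pools of 3.39 to 4.22 and 3.77 to 4.48, though Ccr8 was called higher at day 28 (0.44 ± 0.11, adjusted p = 0.0111). Ackr2, the atypical receptor that clears inflammatory CC chemokines, had means of 5.05, 5.16, 5.31 and 5.38 and did not pass the F test (adjusted p = 0.411).

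Many members lie side by side in the rat genome, and neighbours did not all move alike. In the order of genes in GRCr8, with at most 5 protein-coding genes between members, one group on chromosome 10 held Ccl2, Ccl7, Ccl11, Ccl12 and Ccl1. At day 18 Ccl2 and Ccl7 fell there while Ccl11 rose. The other group on chromosome 10 held Ccl5, Ccl9, Ccl6, Ccl3 and Ccl4, of which Ccl5, Ccl6 and Ccl3 rose at day 60 and the other two stayed under the background level. On chromosome 14 Cxcl2 and Cxcl1 lay beside Cxcl3 and Cxcl6, and Cxcl11, Cxcl10 and Cxcl9 formed a group of 3. On chromosome 19 Cx3cl1 lay between Ccl17 and Ccl22, and at day 28 it fell while those differed by 0.08 ± 0.14 (adjusted p = 0.727) and -0.25 ± 0.094 (adjusted p = 0.0664). On chromosome 8 the receptors Ccr9, Cxcr6, Xcr1, Ccr1, Ccr3 and Ccr2 formed a group of 6, in which Cxcr6 and Xcr1 rose at day 18 and Ccr1 and Ccr2 at day 60.

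Genes that carry the signal inside the cell were counted at each step. Of 32 measured genes of chemokine signalling 14 rose and 0 fell at day 18, 2 rose and 9 fell at day 28, and 9 rose and 4 fell at day 60 against day 28, with median differences of 0.12, -0.14 and 0.10; the shares of all genes called and their medians are those given above for each step. The largest rise of this list at day 18 was that of Jak2, by 1.01 ± 0.083 (adjusted p = 1.82e-07). Jak2 was called higher again at day 28, with a mean of 8.68 against 8.45. Ptk2b, a kinase activated by calcium, rose by 0.68 ± 0.12 (adjusted p = 0.000356) at day 18, and Coro1a, an actin regulator of leukocytes, by 0.55 ± 0.1 (adjusted p = 0.000704). Coro1a and Rac2, a GTPase of leukocyte movement, fell by 0.57 ± 0.097 (adjusted p = 0.000512) and by 0.47 ± 0.1 (adjusted p = 0.0031) at day 28. Was, which drives actin branching in blood cells, rose by 0.70 ± 0.11 (adjusted p = 0.000275) at day 60.

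Chemokines under other symbols and related attractants were counted the same way. Of 16 measured 5 rose and 4 fell at day 18 (31.2% and 25%, with 17.4% and 20.7% of all genes). At day 28 the counts were 2 and 2 (12.5% each, with 10.5% and 14.3% of all genes). At day 60 against day 28 they were 5 and 0 (31.2% and 0%, with 13.8% and 11.2% of all genes). Pf4, the platelet chemokine also called Cxcl4, fell by 0.75 ± 0.16 (adjusted p = 0.0019) at day 18 and rose by 1.16 ± 0.16 (adjusted p = 0.000125) at day 60. Rarres2, chemerin, fell by 0.79 ± 0.1 (adjusted p = 1.58e-05) at day 18 and rose by 0.54 ± 0.1 (adjusted p = 0.00118) at day 60. Mif, a cytokine that can act on Cxcr2 and Cxcr4, rose by 0.87 ± 0.096 (adjusted p = 4.43e-06) at day 18.

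Among genes that induce chemokines or restrain that induction, 7 of 24 rose and 5 fell at day 18 (29.2% and 20.8%, with 17.4% and 20.7% of all genes). Il10 and Nfkbia are of the restraining kind. At day 28 the counts were 2 and 8 (8.33% and 33.3%, with 10.5% and 14.3% of all genes). At day 60 against day 28 they were 5 and 3 (20.8% and 12.5%, with 13.8% and 11.2% of all genes). Il1a, an alarm cytokine of epithelia, rose by 2.39 ± 0.14 (adjusted p = 5.73e-09) at day 18, with a day 7 mean of 3.86, under the background level. The largest of the 5 falls at day 18 was that of Il10, from a mean of 5.36 at day 7 to 3.81, under the background level. Csf1 fell from 8.59 to 7.93 and Irf7 from 7.15 to 6.74. Tnf fell by 0.38 ± 0.12 (adjusted p = 0.0172) at day 18 and Rela by 0.33 ± 0.069 (adjusted p = 0.00153). At that step, at which Cxcl1 and Cxcl2 fell, Nfkb1 rose by 0.57 ± 0.095 (adjusted p = 0.000216), Relb by 0.66 ± 0.12 (adjusted p = 0.000486) and Irf1 by 0.57 ± 0.098 (adjusted p = 0.000274). At day 28, the step at which Cx3cl1, Cxcl16 and Cxcl10 fell, Nfkb2 fell by 0.90 ± 0.11 (adjusted p = 4.13e-05), Nfkbia by 0.69 ± 0.095 (adjusted p = 8.41e-05) and Irf1 by 0.56 ± 0.091 (adjusted p = 0.000338). Rela, Relb, Nfkb1, Nfkb2 and Nfkbia belong to the NF-kappaB system, Nfkbia as its inhibitor, and Irf1 to the interferon response. Csf3 was the 1 gene of the list called with at least a 2-fold difference at day 28. Its mean rose from 4.85 at day 18, under the background level, to 5.96, and it was called higher again at day 60, at 6.94. The summed signal of the 24 was 3183 to 3418 at day 28 against 4114 to 4370 at day 18. Their part in the falls of the 3 ligands was not tested. Ifng, Il1b, Il6, Il4, Il17a and Csf2 were under the background level at every age.

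**Figure D4:**
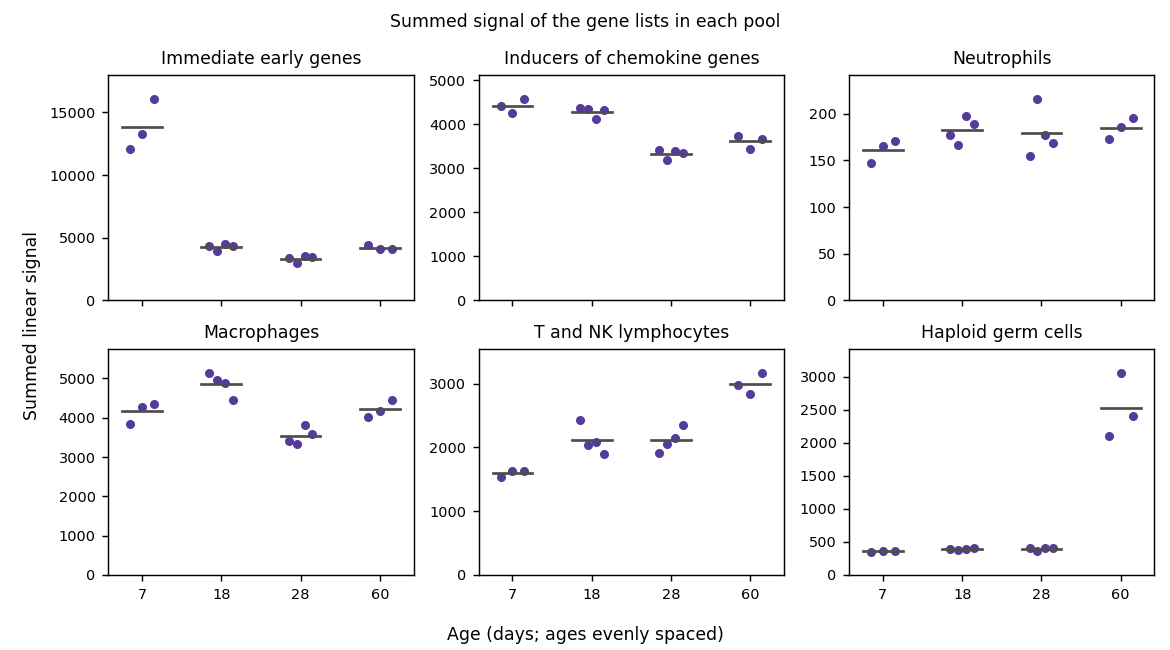
Summed linear signal (vertical axis, from 0) of 6 gene lists in each pool at day 7, 18, 28 and 60 (horizontal axis); points are pools and bars are means. Immediate early genes are at 12086 to 16088 at day 7 and at most 4470 later, and haploid germ cell genes stand at 2104 to 3052 at day 60. The sum of T and NK cell genes increases after day 7. Its brightest gene, Cd4, weighs most in it, with log2 means of 9.81, 9.76, 9.95 and 10.64 over the 4 ages. Cd4 was the 1 gene of the 15 not called at day 18. At day 60 against day 28 it was among 4 called higher, with 1 lower (13.8% and 11.2% of all genes).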

How the data were processed

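Each of the 14 arrays measured 1 pool of whole epididymides. The deposited values are log2 signals, which the authors made with RMA and name the Transcriptome Analysis Console for, per the submitters' processing notes; versions, genome build and scan dates are not given in the sources used here. RMA uses background correction and makes array distributions alike, so differences are relative to the other genes of an array.

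Of 36685 clusters, 18511 had 1 symbol in the array annotation; the cluster with the highest mean stood for each of 291 genes with several, which gave 18166 genes, none removed for low signal. Groups were the labelled ages. One limma model (3.58.1, R 4.3.3) over all pools gave the 4 comparisons and the F test of the 4 ages, with Benjamini-Hochberg adjustment over all genes. The members and lists were chosen with earlier results of these data known; immediate early and haploid germ cell genes were added after values were seen. Values of every pool are given for the members that were above background at 1 age or more, called in a comparison and spanned at least 2-fold between age means, 19 in all; others are given by role. "At least" folds set the brighter age against, per array, the higher of that array's own background level and the dim signal, where every pool of the dimmer age lay under background.

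Same-numbered pools of different ages had deviations that correlated at -0.14 to 0.05 over 19 pairs, and 3 of 14 pools correlated best with their own number, so numbers were not treated as pairs. For day 18 against day 7, data of 18166 genes were simulated with 200 of them changed. On these the fit recovered 95.5% of changes of 1 log2 unit and 55.2% of those of 0.5. The real data had 3167 genes called higher and 3762 lower at this step, so these rates need not hold for them. Alternatives were quantile normalization, centring, an intensity trend, array weights, the pools of the compared ages alone, the replicate block, the mean of a gene's clusters, genes at or above the median level alone, a 2-fold minimum and leaving out each pool. RefSeq promoters of GRCr8 were matched by gene.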

Additional observations from a re-analysis of the deposited data

Results flagged for a closer look

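In 9 of 106 groups of 4 pools (each member at day 18 and at day 28) a single pool lay far from the other 3 by Dixon's test at the 95% level, and chance alone flags about 1 in 20 groups. Ccl1, the ligand of Ccr8, under the background level throughout, was at 4.14 in replicate 3 of day 28, above the other pools of that age at 3.78 to 3.83. Ccl11, eotaxin, was at 5.41 in replicate 3 of day 18, below the other pools of that age at 6.0 to 6.10. Ccl27, a skin ligand of Ccr10, was at 5.82 in replicate 4 of day 28, below the other pools of that age at 6.11 to 6.15. Ccl9, a CC ligand under the background level throughout, was at 4.17 in replicate 4 of day 18, below the other pools of that age at 4.53 to 4.56. Ccr2, the monocyte receptor, was at 7.28 in replicate 1 of day 28, below the other pools of that age at 8.06 to 8.17. Ccr4, a T cell receptor for Ccl17 and Ccl22, was at 4.87 in replicate 1 of day 28, below the other pools of that age at 5.41 to 5.49. Cxcl3, a neutrophil ligand under the background level throughout, was at 3.67 in replicate 1 of day 18, above the other pools of that age at 3.31 to 3.35. Cxcr1, a neutrophil receptor whose age means all lay under the background level, was at 5.12 in replicate 2 of day 28, above the other pools of that age at 4.40 to 4.52. Cxcr6, the receptor of Cxcl16, was at 6.44 in replicate 1 of day 18, above the other pools of that age at 5.82 to 5.90. Of the 9 pools, 1 (for Cxcr1) was replicate 2 of day 28, the array that stood apart by its median.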

How the results depend on the processing

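The 87 called differences of members were checked under 22 alternative settings, which include leaving out each pool. This gave 1868 checks, each of 1 difference under 1 setting, and none reversed. In 1768 checks the call held, and in 100 it ended, which touched 19 of the differences, each given in the report with the pools and settings concerned. These totals leave out the 2-fold minimum, which ends the call of every difference under 1 log2 unit, and they hold the restriction to genes at or above the median level only for differences of such genes. They also hold 87 checks with the mean of a gene's clusters, which could not change a member's own signal because each had 1 cluster. Leaving out 1 pool at a time gave 11 to 13 members higher and 8 to 10 lower at day 18 against day 7, 4 to 6 higher and 3 to 7 lower at day 28 against day 18, 16 to 19 higher and 1 to 3 lower at day 60 against day 28, 18 to 19 higher and 12 to 16 lower at day 60 against day 7, and 35 to 37 changed over the 4 ages. The count of 2 lower at day 60 against day 28 was 1 with quantile normalization, with arrays centred on their medians and with the pools of those ages alone. With arrays centred, 13 members were lower at day 28 against day 18 in place of 7, and this scaling moved the median of all genes at that step to -0.076. With genes at or above the median level alone, where fewer genes are tested, 6 were higher at day 18 against day 7, 2 at day 28 against day 18, 9 at day 60 against day 28 and 9 at day 60 against day 7, 6 were lower at day 60 against day 7, and 16 changed over the 4 ages. With a 2-fold minimum, 3 were higher and 4 lower at day 18 against day 7, 1 and 2 at day 28 against day 18, 5 and 0 at day 60 against day 28, 7 and 6 at day 60 against day 7, and 19 changed over the 4 ages. Beside these 19 stand 16.5% of all genes. For the other counts under centring, the median level and the 2-fold minimum, the shares of all genes called are not given here. Those counts cannot be read against a background. With the replicate number as a block, 17 were higher and 2 lower at day 60 against day 28 and 35 changed over the 4 ages, and the rise of Ccr6 at that step was 0.65 (adjusted p = 0.0627). The counts under an intensity trend and array weights stayed within 1.5 times those reported. With the mean of a gene's clusters the counts were the same, and this setting could hardly move them, as each member had 1 cluster. With 3 or 4 arrays an age, small differences are limited in precision, and signals under the background level of 4.91 have no reliable size. Scan and slide were not analysed here.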
